A study of Mus musculus with 7 samples.

Results

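The DNA replication genes are 42 genes of origin licensing, DNA synthesis, deoxynucleotide supply and replication-coupled chromatin assembly. They were chosen by name, with earlier results of these data known. All probe sets annotated to them were taken across the 7 Affymetrix arrays of the series. A probe set was found for 41 of them, 74 probe sets in all, and Chaf1a is named only. With 1 probe set per gene, 40 passed a filter on low signal and were among the 9390 features tested, of 14639 features with a probe set. Tyms, the thymidylate synthase gene, did not pass, with signals between 4.5 and 34.3. Just inside the filter lay Pola1, with a highest signal of 96.1, and E2f8, with a highest signal of 126.4. The filter, a signal above 45.6 on at least 1 array, was met by Orc1 through p53-Dnmt1-null arrays only and by Pola1 through the after-removal array only.

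RNA came from cells labelled as mouse embryonic fibroblasts, connective tissue cells grown from embryos. The p53-null groups were p53-/- cells that were untreated or exposed to TSA for 24 h or 48 h. The p53-Dnmt1-null groups were p53-/- Dnmt1-/- cells that were untreated, exposed to TSA for 24 h or 48 h, or harvested 2 weeks after TSA had been removed. All 7 groups are thus labelled as lacking the tumour suppressor p53, a label that was not checked here, and no group was wild type. Dnmt1 is the methyltransferase that copies DNA methylation onto newly made strands, and TSA (trichostatin A) inhibits histone deacetylases. Each group held 1 array. The labels name no separate cultures, so the p-values below do not measure a spread between replicates, and a genotype cannot be told apart from the culture that carried it. In the genotype model the error is the change of the genotype difference between times. In the models of TSA the error is the change from 24 h to 48 h. In the model averaged over genotypes it also holds the difference in response between them. The sources used here do not give the dose of TSA, the exposure before its removal, the number of lines or clones or the way in which Dnmt1 was deleted.

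Replication starts from origins that are licensed in the G1 phase, when the origin recognition complex, Cdc6 and Cdt1 load the MCM helicase onto DNA. In S phase the helicase is activated by Mcm10 and Cdc45 among other factors, polymerase alpha-primase lays down primers, and polymerases delta and epsilon extend them on the sliding clamp PCNA, which replication factor C loads. Most of these genes are transcribed around the entry into S phase under the control of the E2F and Rb families, so their RNA is widely used as a readout of the share of cycling cells. In RNA from whole cultures, fewer cells of a kind and less RNA per cell cannot be told apart.

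Promoters are shown because E2F-type words are the shared sequence feature for which this family is known. Those printed belong to members at the high or low end of the genotype or TSA comparison. They were picked for holding a word before the start. Others at these ends, such as Ung and E2f8, held none. RefSeq promoters of assembly GRCm38.p6, 300 bases each with 250 before and 50 after the gene's start, were listed for 37 member genes, with 43 promoters. An E2F-type word was any of TTTGGCGC, TTTCGCGC, TTTCCCGC and TTTGGCGG on either strand, with overlapping matches allowed. Such a word lay in 14 of the 43 member promoters, or 32.6%, and in 777 of all 32851 promoters of the table, or 2.37%. The 250 bases before the start are printed 5′ to 3′ on the gene's strand with these words in capitals. Cdc6 lies at chr11:98907901-98908150 on the plus strand, Mcm5 at chr8:75109259-75109508 on the plus strand, Pola1 at chrX:93632156-93632405 on the minus strand and Rfc3 at chr5:151651209-151651458 on the minus strand. Tk1, at chr11:117826015-117826264 on the minus strand, is the example without such a word.
Cdc6: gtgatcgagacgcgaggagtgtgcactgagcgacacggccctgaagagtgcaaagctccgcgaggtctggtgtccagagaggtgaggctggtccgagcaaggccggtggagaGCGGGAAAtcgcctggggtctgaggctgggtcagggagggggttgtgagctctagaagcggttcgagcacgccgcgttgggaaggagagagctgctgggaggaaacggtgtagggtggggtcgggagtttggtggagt
Mcm5: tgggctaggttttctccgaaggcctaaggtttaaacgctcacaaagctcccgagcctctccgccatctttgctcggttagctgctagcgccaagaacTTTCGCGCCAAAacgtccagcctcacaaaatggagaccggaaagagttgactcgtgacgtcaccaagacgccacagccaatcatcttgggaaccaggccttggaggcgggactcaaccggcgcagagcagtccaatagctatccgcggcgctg
Pola1: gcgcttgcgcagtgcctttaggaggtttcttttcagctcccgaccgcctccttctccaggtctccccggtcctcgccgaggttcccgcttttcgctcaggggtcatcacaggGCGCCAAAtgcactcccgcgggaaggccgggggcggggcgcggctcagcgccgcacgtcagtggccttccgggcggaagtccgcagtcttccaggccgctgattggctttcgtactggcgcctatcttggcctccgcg
Rfc3: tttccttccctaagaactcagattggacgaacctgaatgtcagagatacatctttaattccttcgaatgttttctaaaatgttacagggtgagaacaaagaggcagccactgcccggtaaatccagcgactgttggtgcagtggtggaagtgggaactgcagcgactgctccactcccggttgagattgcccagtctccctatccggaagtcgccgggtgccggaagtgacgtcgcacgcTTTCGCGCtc
Tk1: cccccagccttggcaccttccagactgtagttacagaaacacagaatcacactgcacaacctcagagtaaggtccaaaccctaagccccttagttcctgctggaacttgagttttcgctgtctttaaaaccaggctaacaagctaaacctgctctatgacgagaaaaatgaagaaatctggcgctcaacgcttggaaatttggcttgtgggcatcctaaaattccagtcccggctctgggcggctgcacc
The word of Cdc6 began 138 bases before the start, as did that of Pola1. In Mcm5 a pair of overlapping words began 153 and 149 bases before the start, and in Rfc3 the word began 10 bases before it. In Cdt1, Pola2 and Lig1 the word was not in these 250 bases but reached past the start, and those promoters are not printed.

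Other words were also found in many member promoters. CCAAT was present in 62.8% of member promoters and 37.4% of all promoters, and the GC box GGGCGG in 67.4% and 35.7%, on either strand. The CHR-type words TTTGAA and TTCGAA, known from genes of late cell cycle phases, were present in 18.6% and 19.2%. Member promoters held a median of 22 CpG dinucleotides and a GC content of 61.3%, against 7 and 52.7% over all promoters. These letters are descriptions of sequence and not mapped binding sites. The 13 kept members with an E2F-type word had a median genotype difference of 1.04 and the 22 without had 0.77, on the log2 scale defined below. Of these, 9 and 15 were called higher, with 19.4% of all features. Their median TSA differences were -1.0 and -0.98.

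The arrays were of like overall brightness. The deposited signals had medians between 41.9 and 48.8 and were already scaled to the same trimmed mean of 150, and the 21 pairs of arrays correlated at r of 0.845 to 0.977. Precision is limited by the small number of arrays. Dnmt1, the targeted gene, ranged from 308.2 to 695.6 in p53-null cells and from 74.0 to 206.5 in p53-Dnmt1-null cells (log2 difference -1.77 ± 0.20, SE, limma adjusted p = 0.000323). The control for the 3′ end of 18S ribosomal RNA ranged from 93.6 after removal to 2549.1 at 24 h of TSA in p53-Dnmt1-null cells. The summed signal of 10 fibroblast markers was 26983.9 to 34238.2 in p53-null cells and 8031.1 to 13932.3 in p53-Dnmt1-null cells, where Lum and Postn were under the median of all signals on every array. Summed over 10 epithelial or mesothelial markers it was 152.1 to 423.0 and 10893.0 to 19193.8, with 8 of the 10 under that median in p53-null cells. By these markers the fibroblast label held for the p53-null arrays, while on the p53-Dnmt1-null arrays most of the markers went against it. On p53-Dnmt1-null arrays 7 of 10 fibroblast markers were at least 2-fold lower at 0, 24 and 48 h, with 5.99% of all features. Col1a2 was at 93.9 to 696.2 there against 5510.7 to 6171, while Vim stayed closer, at 4047.7 to 5732.6 against 5662.4 to 6432.2. Of the epithelial or mesothelial markers 9 of 10 were at least 2-fold higher at these times, with 5.11% of all features. Macrophage marker sums were 172.4 to 210.4 and 244.6 to 506.6, endothelial sums 140.2 to 160.7 and 76.4 to 169.9, and no marker was at 0. These markers move with the genotype, and their part in the genotype differences of the replication genes was not tested.

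Differences are given on the scale log2(signal + 11.4), where the offset is the 25th percentile of all signals and understates changes of dim genes. A difference of 1 is 2-fold on that scale. Across the 7 arrays most replication genes followed a like profile. The correlation of a member with the mean of the other members over the 7 arrays had a median of 0.93, from 0.61 for Prim2 to 0.997 for Rfc5, and 35 of 40 members were over 0.8. Of all features, 10.2% were over 0.8 with the members' mean. These correlations share arrays, scaling and genotype and are a description only. A member was highest on the untreated p53-Dnmt1-null array in 21 cases and on the after-removal array in 17. It was lowest on the p53-null array at 48 h of TSA in 27 cases and on that at 24 h in 9. The remaining highest values were on the untreated p53-null array and the p53-Dnmt1-null array at 48 h, 1 member each, and the remaining lowest were on the p53-Dnmt1-null array at 24 h, 3 members, and the untreated p53-null array, 1 member.

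**Figure D1:**
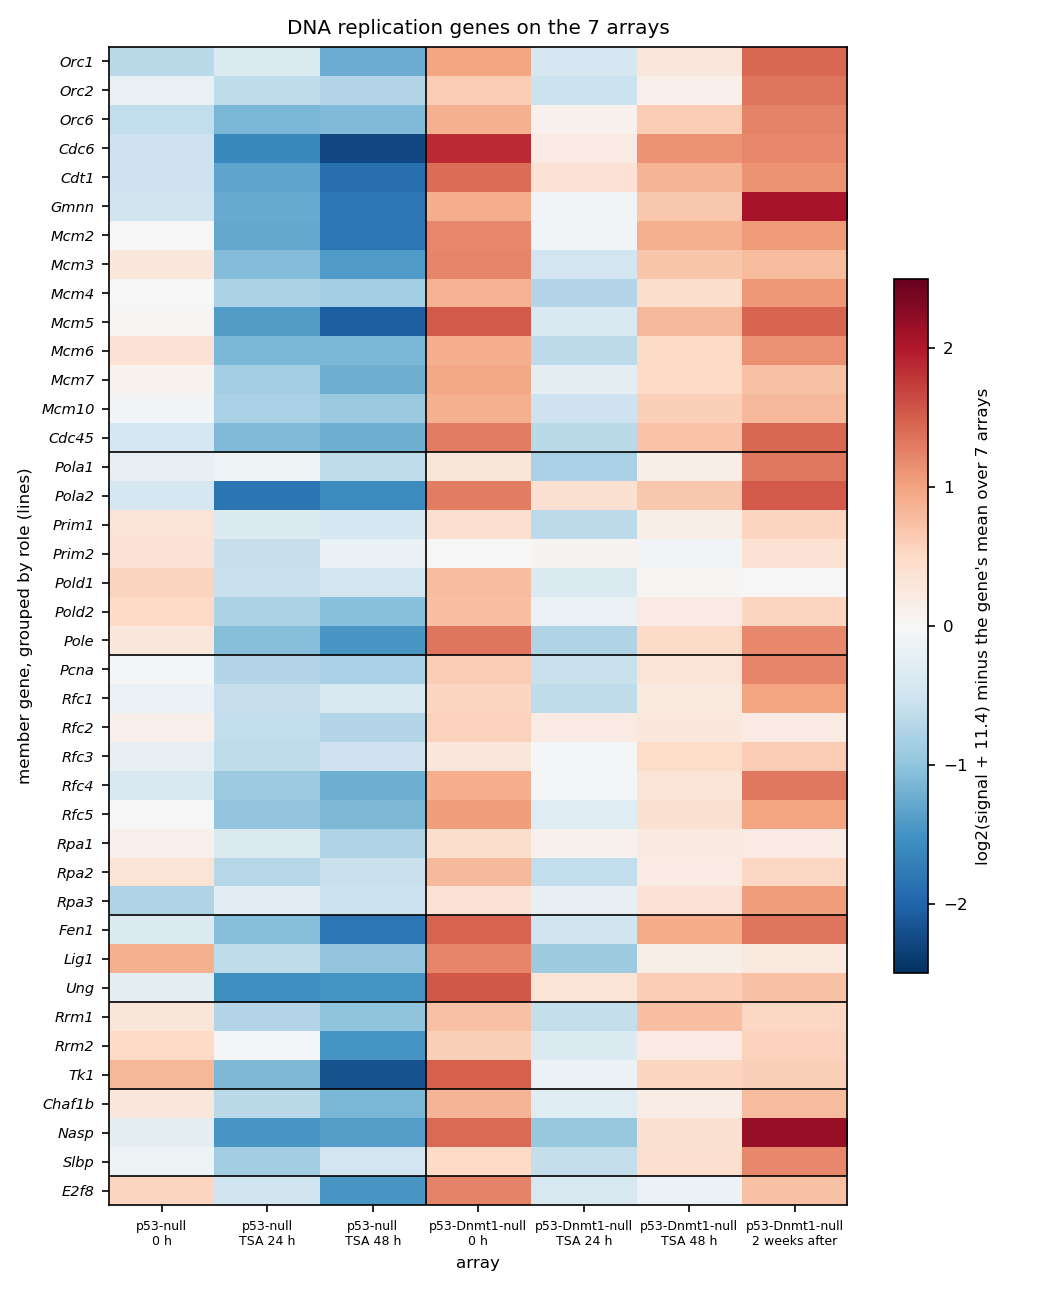
Each row is 1 of the 40 kept replication genes, grouped by role, and each column is 1 array. Colour gives log2(signal + 11.4) minus the gene's mean over the 7 arrays, with blue for lower and red for higher. The p53-null column at 48 h of TSA holds the lowest value of 27 genes, and the untreated and after-removal columns of p53-Dnmt1-null cells hold the highest values of 21 and 17.

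The first comparison asked which genes differ between p53-Dnmt1-null and p53-null cells. Most replication genes were higher without Dnmt1. In a limma model with terms for genotype and for time, fitted to the 6 arrays of matched times (0, 24 and 48 h), 28 of 40 members were higher in p53-Dnmt1-null cells at an adjusted p of 0.05, 0 were lower and 12 did not pass. Over all features 19.4% were higher and 19.4% lower. At an unadjusted p under 0.05, limma had 33 members higher and 0 lower, and 24.9% and 23.8% of all features. All 40 members had a fitted difference above 0, as did 52.7% of all features, with a median of 0.84 against 0.04 for all features. The members not called were Orc1, Orc2, Pola1, Prim1, Prim2, Pold1, Rfc1, Rpa2, Lig1, Rrm1, Rrm2 and E2f8.

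The size of the difference varied with the time, with 1 array against 1 and no test at each time. In untreated cells 16 members were at least 2-fold higher in p53-Dnmt1-null cells, where 9.44% of all features were, and the members' median was 0.84. At 24 h of TSA 8 members were, against 10.5% of all features, with a median of 0.48. At 48 h 28 members were, against 12.5% of all features, with a median of 1.52. At least 2-fold higher at all 3 times were 8 members, Orc6, Cdc6, Cdt1, Gmnn, Mcm2, Mcm5, Pola2 and Ung, as were 5.11% of all features. For Mcm2 this held for the probe set that stands for the gene, while its other kept probe set differed by 0.05 in untreated cells. A difference above 0 at all 3 times was seen for 33 members and 35.1% of all features. Without the 48 h pair of arrays limma called 16 members higher, without the 24 h pair 36 and without the 0 h pair 26, and 0 were lower in each. Of all features, 11.8%, 18.8% and 17.7% were called higher in the same order. The members' medians were then 0.61, 1.10 and 0.92. Of the members described in full below, Pole, Pold2, Pcna, Rfc3, Rpa3 and Slbp lost their call without the 48 h pair, Rpa3 and Slbp also without the 0 h pair, and Orc1, Lig1, Rrm1 and E2f8 gained one without the 24 h pair.

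**Figure D2:**
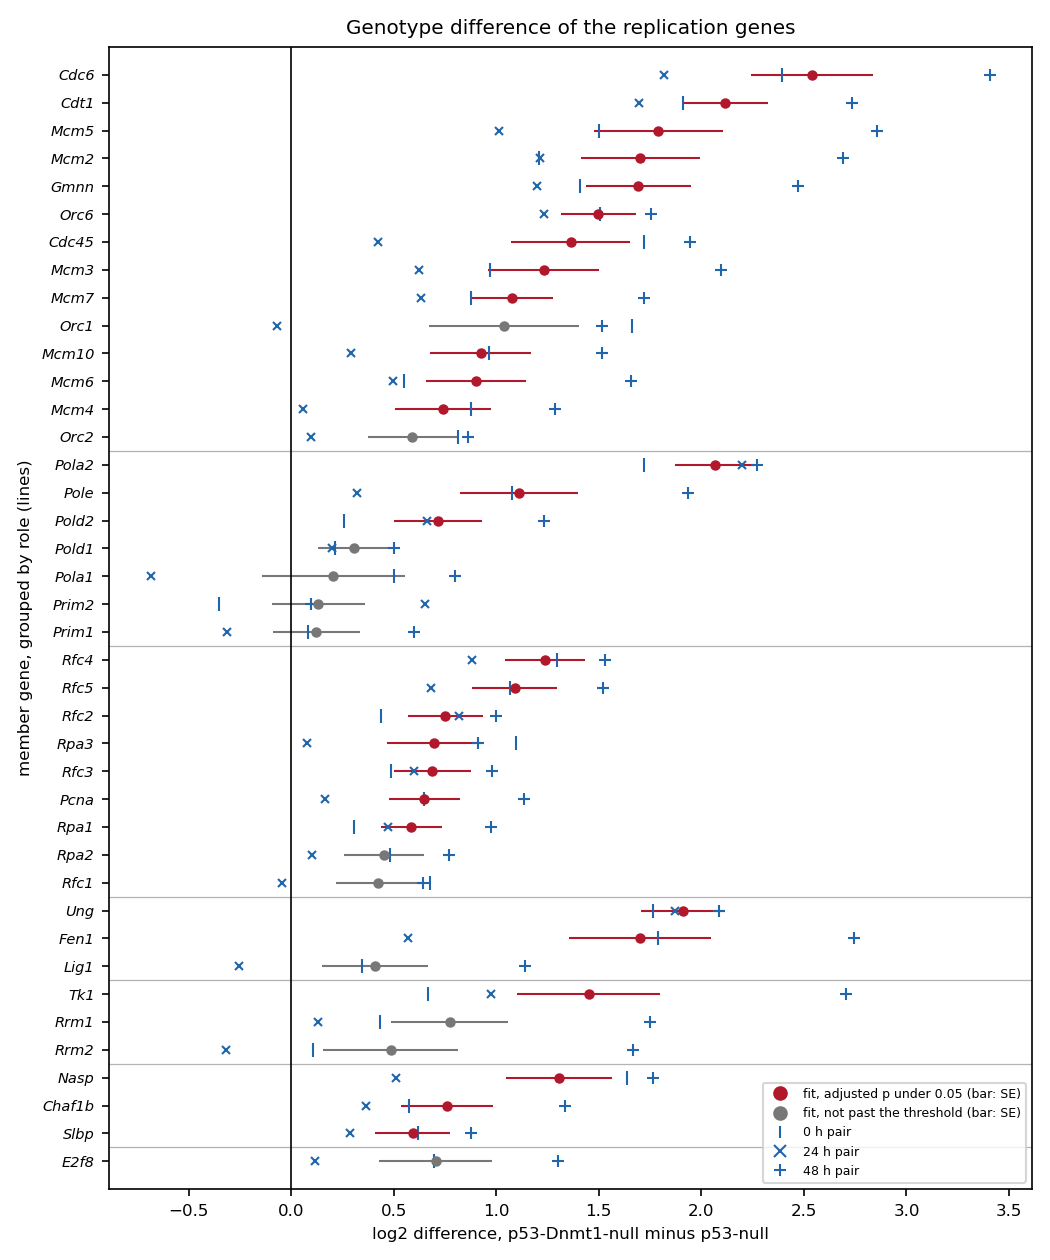
The x axis gives the log2 difference of p53-Dnmt1-null minus p53-null cells for each of the 40 kept members, grouped by role. Circles with SE bars are the limma fit, red at an adjusted p under 0.05 (28 members) and grey otherwise, and the blue marks are the pairs of arrays at 0, 24 and 48 h, with the 48 h mark farthest right for most members.

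Origin licensing and helicase genes held the most called members. Of 14 kept, 12 were higher without Dnmt1, with 19.4% of all features, and the median difference of the 14 was 1.30. Cdc6, the ATPase that helps to load the helicase, read 50.6 untreated, 17.8 after 24 h and 6.9 after 48 h of TSA in the p53-null groups, then 314.2, 91.5 and 182.8 in the p53-Dnmt1-null groups, and 192.3 after removal. Signals of the other members are given in the same order. Its difference of 2.54 ± 0.30 (SE, 3 arrays per genotype with 1 at each time, limma adjusted p = 0.000351) was the largest among the members. The lowest p53-Dnmt1-null array was above the highest p53-null array. Cdt1, the partner of Cdc6 in loading, was at 494.4, 277.9 and 185.0 in p53-null cells, 1892.9, 926.5 and 1294.9 in p53-Dnmt1-null cells and 1578.4 after removal (2.11 ± 0.21, limma adjusted p = 0.000147). Here too the genotypes did not overlap, and both had their highest signal untreated.

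Geminin, Gmnn, the inhibitor of Cdt1, was higher along with it. Its signals were 143.2, 79.8 and 51.3 in p53-null cells, 399.2, 198.0 and 335.8 in p53-Dnmt1-null cells and 906.0 after removal, with no overlap of the genotypes (1.69 ± 0.26, limma adjusted p = 0.00135). All 6 subunits of the MCM2-7 helicase were higher, by 0.74 to 1.79. Mcm5 had the largest of these differences, 1.79 ± 0.31 (limma adjusted p = 0.00281), and it was at 411.0, 144.8 and 88.0 in p53-null cells, 1185.0, 303.5 and 709.2 in p53-Dnmt1-null cells and 1119.3 after removal. The p53-Dnmt1-null array at 24 h was below the untreated p53-null array, so the genotypes overlapped for Mcm5 across times but not within a time. Mcm2 was at 429.5, 171.3 and 115.4, then 1007.2, 411.8 and 806.1, and 919.3 after removal (1.70 ± 0.29, limma adjusted p = 0.00237). Mcm7 was at 1460.4, 757.1 and 585.9 in p53-null cells, 2689.9, 1181.5 and 1957.8 in p53-Dnmt1-null cells and 2299.2 after removal (1.08 ± 0.20, limma adjusted p = 0.00343). In both, the p53-Dnmt1-null array was the higher of the pair at every time. The other kept probe set of Mcm2 was at 412.6, 200.8 and 129.4, then 428.6, 491.1 and 306, and 694.4 after removal. With each probe set a feature of its own it was at 0.82 ± 0.25 (limma adjusted p = 0.0305). At 24 h of TSA in p53-Dnmt1-null cells it changed by 0.19, against -1.27 for the probe set that stands for Mcm2.

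The helicase activators Mcm10 and Cdc45 were also higher, by 0.92 and 1.36. Of the 3 origin recognition subunits measured, Orc6 was called, 2.82-fold higher (limma adjusted p = 0.000428). Orc1, the subunit whose level cycles in many cells, was not called. Its signals were 20.8, 28.9 and 10.5 in p53-null cells, 90.6, 27.0 and 51.2 in p53-Dnmt1-null cells and 128.9 after removal, and at 24 h the genotypes were close (1.04 ± 0.37, limma adjusted p = 0.0533). Orc1 passed the threshold without the 24 h pair, with arrays scaled to a common median and with the mean of all probe sets of each gene. It also passed with each probe set a feature of its own. Orc2 differed by 0.59 ± 0.22 (limma adjusted p = 0.0610).

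Polymerase and primase genes were uneven. Of 7 kept, 3 were called higher, Pola2, Pole and Pold2, with 19.4% of all features, and the median was 0.30. Within polymerase alpha-primase, which makes the primers, the regulatory subunit Pola2 stood apart from the other subunits. Pola2 was at 108.8, 34.7 and 42.5 in p53-null cells, 384.9, 200.2 and 249.0 in p53-Dnmt1-null cells and 458.9 after removal, with no overlap (2.06 ± 0.19, limma adjusted p = 0.000101). The catalytic subunit Pola1 was at 26.2, 28.1 and 16.7, then 41.9, 13.2 and 37.4, and 96.1 after removal, under the median of all signals on 6 of 7 arrays (0.21 ± 0.35, limma adjusted p = 0.666). Its genotypes overlapped. The difference of Pola1 turned to -0.090 without the 48 h pair.

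The primase subunits did not separate the genotypes. Prim1, the catalytic subunit, was at 259.6, 158.1 and 147.1 in p53-null cells, 275.5, 125.1 and 228.3 in p53-Dnmt1-null cells and 298.8 after removal (0.12 ± 0.21, limma adjusted p = 0.674). Without the 48 h pair the value was -0.12. Prim2, the large subunit, was at 145.9, 70.2 and 97.8, then 111.8, 116.9 and 105.5, and 145.7 after removal (0.13 ± 0.23, limma adjusted p = 0.665). The highest and the lowest array of Prim2 were both p53-null arrays, and its value was -0.13 without the 24 h pair and -0.11 as the mean of its probe sets. Of the elongating enzymes, Pole, the catalytic subunit of polymerase epsilon, was at 159.3, 56.2 and 40.4, then 348.7, 73.0 and 186.6, and 313.2 after removal (1.11 ± 0.29, limma adjusted p = 0.0162). Pold2, the accessory subunit of polymerase delta, was at 478.0, 188.8 and 158.7, then 573.3, 304.9 and 388.2, and 497.2 after removal (0.72 ± 0.21, limma adjusted p = 0.0293). Both were higher without Dnmt1 at each time, while Pold1, the catalytic subunit of polymerase delta, differed by 0.30 ± 0.18 (limma adjusted p = 0.201).

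The clamp, its loader and the single-strand binding protein were mostly higher without Dnmt1. Of 9 kept members 7 were called, with 19.4% of all features, and the median was 0.69. Pcna, the sliding clamp, was at 1770.5, 1093.4 and 1024.7 in p53-null cells, 2778.1, 1227.0 and 2266.5 in p53-Dnmt1-null cells and 4225.8 after removal (0.65 ± 0.17, limma adjusted p = 0.0184). Its after-removal array was the highest. Of replication factor C, 4 of 5 subunits were called, from Rfc4 at 1.24 and Rfc5 at 1.09 to Rfc3 at 0.69, and Rfc1, the large subunit, was not, at 0.43. Rfc3 was at 103.8, 74.7 and 81.5, then 150.1, 118.9 and 171.9, and 196.6 after removal (0.69 ± 0.19, limma adjusted p = 0.0205), with no overlap of the genotypes. Its other kept probe set read 105.2, 68 and 85.3, then 109.7, 67.3 and 99.8, and did not separate the genotypes. With each probe set a feature of its own it was at 0.08 ± 0.18 (limma adjusted p = 0.753). Of replication protein A, Rpa1 and Rpa3 were called at 0.58 and 0.70, and Rpa2 was not, at 0.45. With each probe set a feature of its own, the other kept probe set of Rpa2 was called, at 0.59 ± 0.20 (limma adjusted p = 0.0452), and that of Rpa1 was not. Rpa3, the small subunit, was at 108.0, 153.3 and 126.0 in p53-null cells, 244.2, 162.6 and 247.3 in p53-Dnmt1-null cells and 404.3 after removal (limma adjusted p = 0.0415). The call of Rpa3 was lost without the 0 h pair, without the 48 h pair, without the filter and without the intensity trend.

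Among genes of Okazaki fragment maturation and base excision, 2 of 3 were called, with 19.4% of all features. Fen1, the flap nuclease, was at 396.3, 235.6 and 135.0 in p53-null cells, 1398.0, 354.6 and 969.7 in p53-Dnmt1-null cells and 1285.3 after removal (1.70 ± 0.35, limma adjusted p = 0.00550). Ung, the uracil glycosylase that removes uracil from new DNA, was at 52.9, 14.5 and 15.4, then 207.3, 83.5 and 102.3, and 111.9 after removal (1.91 ± 0.20, limma adjusted p = 0.000219). The genotypes did not overlap for Ung, and for Fen1 the 24 h array of p53-Dnmt1-null cells lay below the untreated p53-null array. Lig1, the ligase that joins Okazaki fragments, was at 495.1, 166.7 and 127.2, then 631.2, 137.8 and 294.4, and 314.6 after removal, and was not called (0.41 ± 0.26, limma adjusted p = 0.239). At 24 h its p53-Dnmt1-null array was the lower of the pair.

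Deoxynucleotide synthesis had 1 of 3 members called, with 19.4% of all features, so this count was not clearly apart from the background. Tk1, the cytosolic thymidine kinase, was at 788.6, 194.3 and 88.5 in p53-null cells, 1260.3, 393.0 and 640.9 in p53-Dnmt1-null cells and 667.4 after removal (1.45 ± 0.35, limma adjusted p = 0.0117). Rrm1, the large subunit of ribonucleotide reductase, was at 771.7, 372.3 and 306.6, then 1047.5, 408.6 and 1058.6, and 901.6 after removal (0.77 ± 0.28, limma adjusted p = 0.0605). With each probe set a feature of its own, the other kept probe set of Rrm1 was called, at 0.89 ± 0.29 (limma adjusted p = 0.0417). Rrm2, the small subunit, differed by 0.48 ± 0.33 (limma adjusted p = 0.274). For all 3 the pair at 48 h was the one that differed most.

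Chromatin assembly and histone supply had all 3 kept members called, with 19.4% of all features. Nasp, a histone chaperone, was at 176.1, 67.8 and 72.6 in p53-null cells, 571.0, 101.6 and 274.0 in p53-Dnmt1-null cells and 979.9 after removal (1.30 ± 0.26, limma adjusted p = 0.00499). Slbp, which binds the stem-loop of histone messages, was at 339.2, 196.8 and 262.4, then 526.9, 242.4 and 490.6, and 862.1 after removal (0.59 ± 0.18, limma adjusted p = 0.0332). Both were highest on the after-removal array. Chaf1b, a subunit of chromatin assembly factor 1, differed by 0.76 ± 0.22 (limma adjusted p = 0.0278). E2f8, an atypical E2F that represses transcription, was at 73.6, 29.9 and 10, then 126.4, 33.3 and 41.3, and 86.2 after removal (0.70 ± 0.28, limma adjusted p = 0.0761).

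The TSA comparison asked how the genes respond to inhibition of histone deacetylases. Averaged over genotypes in a limma model of all 7 arrays, 39 of 40 members and 49.1% of all features had a lower level with TSA, with a median of -0.96 against 0.01 for all features. None passed the threshold: limma called 0 members lower and 0 higher at an adjusted p of 0.05, and over all features 0% lower and 0.0319% higher. At an unadjusted p under 0.05 limma had 33 members lower and 0 higher, and 7.43% and 7.47% of all features. The lowest adjusted p among members was 0.106. Leaving out each of the 4 TSA arrays in turn gave 0 called members, with the lowest adjusted p between 0.0587 and 0.169 and medians between -1.13 and -0.82.

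Tk1 had the lowest fitted value, -1.89 ± 0.37 (SE, limma adjusted p = 0.123), with both TSA arrays of each genotype below the untreated array given above. Lig1 followed at -1.64 ± 0.29 (limma adjusted p = 0.106), Mcm5 at -1.54 ± 0.34 (limma adjusted p = 0.135), E2f8 at -1.51 ± 0.29 (limma adjusted p = 0.123), Pole at -1.50 ± 0.32 (limma adjusted p = 0.135) and Nasp at -1.45 ± 0.34 (limma adjusted p = 0.145). These came from different roles, namely nucleotide salvage, ligation, the helicase, transcription, synthesis and histone handling. At the other end Rpa3 was at 0.03 ± 0.25 (limma adjusted p = 0.973), which turned to -0.025 when arrays were scaled to a common median, and Rfc3 at -0.21 ± 0.22 (limma adjusted p = 0.692). Rpa3 was above its untreated level at 24 h and 48 h in p53-null cells and below it at 24 h in p53-Dnmt1-null cells. The role groups had TSA medians of -0.95 for licensing and helicase, -1.0 for polymerases and primase, -0.57 for clamp, loader and single-strand binding, -1.18 for Okazaki maturation and base excision, -0.96 for deoxynucleotide synthesis and -1.04 for chromatin assembly. The MCM2-7 subunits were between -1.54 and -0.91.

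In p53-null cells 16 members were at least 2-fold lower at 24 h, with 1.85% of all features, and 22 at 48 h, with 3.17%. At both times 15 were, with 1% of all features: Cdc6, Mcm2, Mcm3, Mcm5, Mcm6, Pola2, Pold1, Pold2, Pole, Lig1, Ung, Rrm1, Tk1, Nasp and E2f8. No member was at least 2-fold higher at 24 h or 48 h, where 3.38% and 4.75% of all features were. The medians were -0.87 and -1.14. Tk1 was 3.89-fold lower at 24 h and 8.01-fold lower at 48 h on this scale. Limma with both times pooled called 0 members (0% of all features lower), with 24 lower at an unadjusted p under 0.05 and 3.98% of all features.

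In p53-Dnmt1-null cells 29 members were at least 2-fold lower at 24 h, with 5.1% of all features, and 3 at 48 h, with 1%. These 3, Lig1, Nasp and E2f8, were lower at both times, as were 0.341% of all features. They were also the members that were at least 2-fold lower on all 4 TSA arrays, as 0.0532% of all features were. The medians were -1.18 and -0.51. Limma with both times pooled called 0 members (0% of all features lower), with 19 lower at an unadjusted p under 0.05 and 2.79% of all features. With the fold measured on the smaller scale of an offset at the median signal, 8 members in p53-null cells and 0 in p53-Dnmt1-null cells were at least 2-fold lower at both times. The share of all features at that offset is not given here. Below the untreated level on all 4 TSA arrays were 34 members, and 18.9% of all features. The exceptions were Orc1, Pola1, Prim2, Rfc3, Rpa3 and Rrm1.

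**Figure D3:**
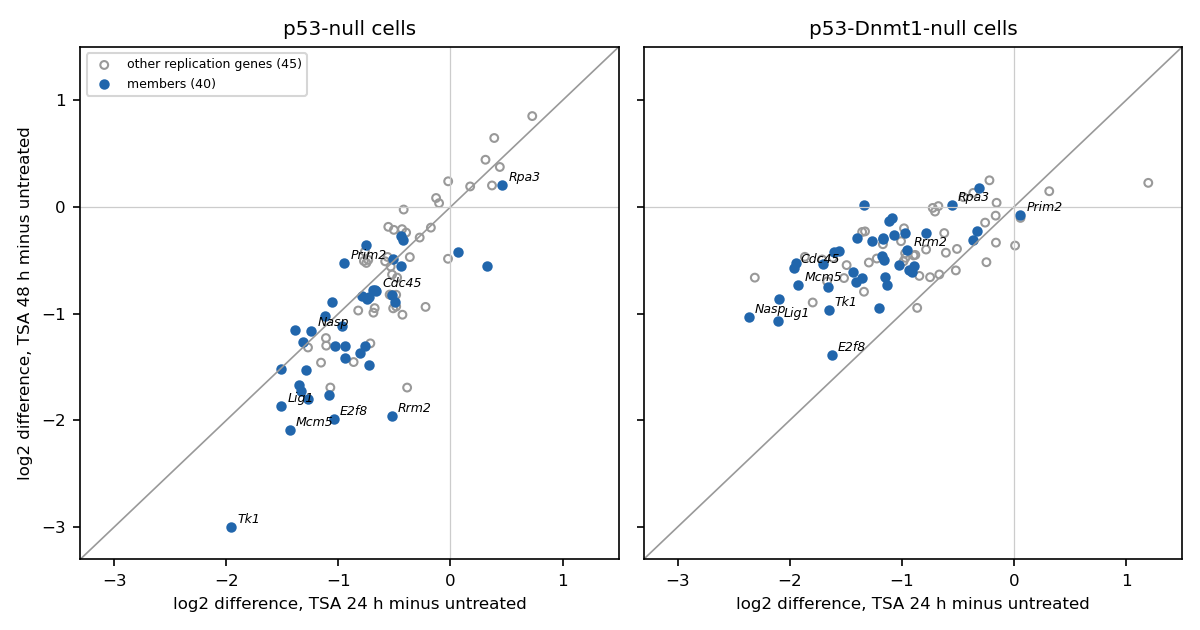
Each point is a gene, with its log2 difference from the untreated array at 24 h of TSA on the x axis and at 48 h on the y axis, in p53-null cells (left) and p53-Dnmt1-null cells (right). Filled points are the 40 members and open points 45 other replication genes, and the diagonal marks equal differences: most members lie below it in p53-null cells (30) and above it in p53-Dnmt1-null cells (39).

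For most members the course from 24 h to 48 h ran in opposite directions in the genotypes. In p53-null cells 30 members were lower at 48 h than at 24 h, with 47.2% of all features, and in p53-Dnmt1-null cells 39 were higher, with 52.6% of all features. Both held for 30 members and 19.4% of all features. These counts use the sign alone, and some p53-null changes were close to 0, such as Mcm6 at -0.007, Mcm4 at -0.047 and Pcna at -0.093. The median from 24 h to 48 h was -0.25 for the p53-null arrays and 0.73 for the p53-Dnmt1-null arrays. At least 2-fold lower in p53-null cells were Rrm2 at -1.44 and Tk1 at -1.04, with 2.17% of all features. At least 2-fold higher in p53-Dnmt1-null cells were 11 members, with 3.14% of all features: Mcm3, Mcm4, Mcm5, Mcm6, Mcm10, Cdc45, Pole, Fen1, Lig1, Rrm1 and Nasp, by 1.04 to 1.42. Each value compares 1 array with 1 array, and this difference between genotypes was not tested. The p53-Dnmt1-null array at 24 h also had the highest 18S control signal of the series, 2549.1 against 1292.1 at 48 h, and the part of this in the result was not tested.

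The difference of the pooled TSA response between genotypes was tested as an interaction. Limma called 0 members and 0% of all features, and 0 members had an unadjusted p under 0.05, where 3.1% of all features did. The largest values were 1.17 ± 0.67 for Tk1, -0.94 ± 0.69 for Orc1, 0.74 ± 0.62 for Mcm2 and 0.73 ± 0.44 for Prim2 (SE, limma adjusted p = 0.994 for each). A positive value means a response that was less negative in p53-Dnmt1-null cells. For Tk1 the mean over both times was lower in p53-null cells, with signals of 194.3 and 88.5 from 788.6, than in p53-Dnmt1-null cells, with 393.0 and 640.9 from 1260.3. Any change from 24 h to 48 h adds to these SEs.

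The after-removal array gives the level once TSA was gone. Within 1.5-fold of the untreated p53-Dnmt1-null level 2 weeks after removal were 28 of 40 members, with 61.9% of all features, and 18 were above it, with 42% of all features, so both counts were near the background. The members' median was -0.07 and that of all features -0.13. Scaling to a common median moved the latter to -0.0027 and the members' median to 0.07. At least 2-fold higher were Gmnn at 1.16 ± 0.46 (limma adjusted p = 0.257) and Pola1 at 1.01 ± 0.58 (limma adjusted p = 0.391), with 4.66% of all features. Pola1 passed the filter on low signal through the after-removal array alone, so its count here was helped by the filter. Nasp came next at 0.77 ± 0.58 (limma adjusted p = 0.514). At least 2-fold lower were 0 members, with 9.68% of all features, and the lowest were Lig1 at -0.98 ± 0.51 (limma adjusted p = 0.358), Tk1 at -0.91 ± 0.55 (limma adjusted p = 0.418) and Ung at -0.83 ± 0.36 (limma adjusted p = 0.283). Lig1, at 314.6, was near its 48 h signal of 294.4, and Tk1, at 667.4, near its 48 h signal of 640.9. The values depended on the probe set: other kept probe sets of Nasp, Orc2 and Rfc1 were at 2.05, 1.72 and 1.54, and in 7 of 19 genes with more than 1 kept probe set the sign differed between them. Limma called 0 members, with 1 higher and 0 lower at an unadjusted p under 0.05, where 5.76% and 12.1% of all features were, and 0.0106% of all features higher and 0% lower after adjustment. Compared with 48 h of TSA, 36 members were above, with 41.8% of all features, and the median was 0.51.

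Genes of the same pathway outside the 42 were taken from lists of other replication machinery and of nucleotide supply and histone chaperones, with 60 genes, 46 with a probe set and 45 kept. Between genotypes 19 were higher and 1 lower by limma, against 19.4% and 19.4% of all features, with a median of 0.54. The highest were Msh6, a mismatch recognition protein, at 1.88, Mthfd1, a folate enzyme, at 1.49 and Asf1b, a histone chaperone, at 1.21. The lowest were Rbbp7, a histone-binding protein, at -0.68 (limma adjusted p = 0.00388), and, not called, Asf1a at -0.40 and Pole3 at -0.11. With TSA 42 of 45 and 49.1% of all features were below 0, with a median of -0.60. Limma called 0, with 23 lower and 0 higher at an unadjusted p under 0.05, and 7.43% and 7.47% of all features. Gins1, a subunit of the helicase complex, was at -1.09, Cad, which starts pyrimidine synthesis, at -1.05 and Top2a, a topoisomerase, at -1.03. Above 0 were Pold4 at 0.56, Rrm2b at 0.51 and Orc3 at 0.06.

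For genes that control the cell cycle the genotype counts were near the background. Of 31 listed E2F, Rb, cyclin and CDK genes, 27 had a probe set and 25 were kept, with 4 higher and 7 lower between genotypes by limma, against 19.4% and 19.4% of all features. The S-phase cyclin Ccna2 was at 630.9, 255.0 and 147.7 in p53-null cells, 1122.6, 288.4 and 695.4 in p53-Dnmt1-null cells and 1301.0 after removal (1.05 ± 0.33, limma adjusted p = 0.0338). E2f4 differed by 0.95 and Myc by 0.81. The CDK inhibitor Cdkn2a was lower without Dnmt1, at 372.0, 888.8 and 679.7 in p53-null cells, 159.8, 365.3 and 330.4 in p53-Dnmt1-null cells and 137.2 after removal (-1.15 ± 0.16, limma adjusted p = 0.000938). Its highest signal was on the p53-null array at 24 h of TSA, where 9 members were lowest, while 27 were lowest on that at 48 h. A link between Cdkn2a and the members was not tested. The CDK inhibitor Cdkn1c differed by -3.12 and the Rb relative Rbl2 by -1.28. With TSA limma called 0 of the 25, with 5 lower and 4 higher at an unadjusted p under 0.05, against 7.43% and 7.47% of all features. Cdkn1c was at 1.16, Cdkn2a at 1.05 and Cdkn2b at 0.89, and Ccna2 at -1.47, Tfdp1 at -0.86 and E2f1 at -0.74.

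**Figure D4:**
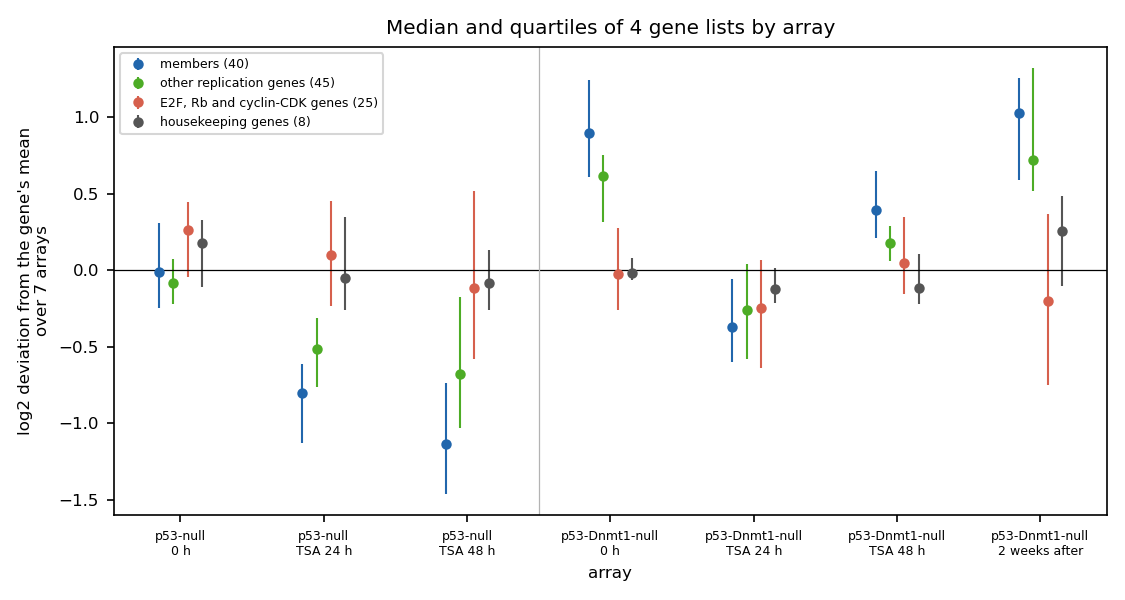
Points are medians and bars quartiles, over the genes of a list, of the log2 deviation from each gene's mean over the 7 arrays, shown for the 40 members, 45 other replication genes, 25 E2F, Rb and cyclin-CDK genes and 8 housekeeping genes. The members run from -1.14 on the p53-null array at 48 h of TSA to 1.02 after removal, and the medians of the housekeeping genes stay between -0.12 and 0.26.

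Most probe sets of a gene gave the same direction. Of 67 member probe sets that passed the filter, each tested as a feature of its own, 42 were called higher between genotypes and 0 lower, with 17.6% of all such features higher, and the calls fell on 31 genes. A kept probe set of each of the called genes Mcm3, Mcm4, Rfc3, Rpa1 and Nasp was not called. Of 19 genes with more than 1 kept probe set, the sign of the genotype difference was shared in 18, all but Prim2, and that of the TSA difference in 19. Within a gene the genotype difference ranged over a median of 0.17 and at most 0.96, in Nasp. The probe sets that stand for Mcm3, Mcm7, Rfc4, Fen1, Rrm2 and Nasp carry the platform's suffix for probes that can match more than 1 transcript, so their signals may include related sequences.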

How the data were processed

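RNA from 7 groups of cells labelled as mouse embryonic fibroblasts, 1 array each, was measured on Affymetrix arrays. Per the labels' protocols, total RNA was extracted with TriZol and labelling followed the Affymetrix standard. The deposited values are linear signal intensities, made by the authors with MAS5 per the submitters' processing notes, with no version named in the sources used here. Names came from the platform's annotation, which paired 20393 of 22690 probe sets with 1 symbol, 691 with several and 1606 with none. Of these, 20364 symbols were updated to RefSeq GRCm38.p6. Probe sets with several symbols named no gene, and 64 control probe sets stayed out of the tests. A gene was represented by its probe set of highest mean log2 signal. Features above the pooled median signal of 45.6 on at least 1 array were kept, 8298 named and 1092 unnamed.

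Tests used limma 3.58.1 in R 4.3.3 on log2(signal + 11.4) with a trend on intensity; p-values were adjusted by Benjamini-Hochberg over 9390 features and called at 0.05. The genotype model had 2 residual and 6.36 prior degrees of freedom, the model of TSA averaged over genotypes 3 and 5.69, and the model of 5 groups, used for TSA per genotype, its interaction and removal, 2 and 5.75. The last model takes 24 h and 48 h as replicates and assumes that lone arrays vary alike. Arrays were also compared 1 against 1 by a 2-fold rule. The model of TSA averaged over genotypes was chosen with the result of the fits per genotype known. The code was tested on simulated data. Alternatives covered the offset, normalization, filter, probe sets, trend, fold and leaving out arrays.

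The members, the lists and the tests were chosen with earlier results of these data known. Values on all arrays are given for the members with the 5 largest and 3 lowest genotype differences, the 6 lowest and 2 highest TSA differences, the 4 largest interactions, the 3 highest and 3 lowest after removal, and the member of each role with the highest mean signal. Of the other lists, the 3 highest and 3 lowest in the genotype and TSA comparisons are named.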

Additional observations from a re-analysis of the deposited data

Results flagged for a closer look

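The change from 24 h to 48 h of TSA had opposite directions in the genotypes for 30 of the 40 kept replication genes, which were lower at 48 h in p53-null cells and higher at 48 h in p53-Dnmt1-null cells, as were 19.4% of all features. It drew attention because the arrays of one genotype went one way and those of the other the opposite way. Each change compares 1 array with 1 array, so this difference was not tested. Counted with quantile-normalized arrays it held for 31 members, and with arrays scaled to a common median for 29, both alternatives chosen after seeing the data.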

How the results depend on the processing

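The direction of the genotype result did not change: limma called 0 members lower under every alternative run, and 19 (no filter) to 31 (every probe set a feature, an alternative chosen after seeing the data) higher, against 28. Leaving out a pair of arrays gave 16 to 36, with 11.8% to 18.8% of all features higher, and at least 1.5-fold at all 3 times held for 13. Limma called 0 members for TSA, its interaction and removal under every alternative run. Counts by the fold rule moved more. In p53-null cells 15 members were lower at both times, 8 with the offset at the median and 28 at 1.5-fold, and 16 to 22 with 1 time alone. In p53-Dnmt1-null cells these counts were 3, 0 and 15, and 3 to 29 with 1 time alone. After removal 2 were higher, 1 with the offset at the median, 1 with the filter on mean signal, 4 with the mean of a gene's probe sets and 7 at 1.5-fold, and 0 were lower, 1 with an offset of 1 and 5 at 1.5-fold. A larger offset shrinks every fold and a lower fold admits more by construction. The other causes were not tested. Except for leaving out arrays and for every probe set a feature, shares of all features under the alternatives are not given here. A change in these counts can thus not be told apart from a change over all features. Values near 0 changed sign. Rpa3 with TSA came to -0.025 under a common median, and ranged from -0.067 to 0.20 with 1 TSA array left out. Prim2 between genotypes came to -0.11 with the mean of its probe sets. With 1 pair left out the genotype values ranged from -0.13 to 0.38 for Prim2, from -0.12 to 0.34 for Prim1 and from -0.090 to 0.65 for Pola1. Over the members described in full, 233 genotype values under alternatives kept their side of the threshold, 18 lost it and 8 gained it, and 284 TSA values kept it. No paired analysis was possible because the labels give no replicate numbers and each group holds 1 array; the genotype model already matches arrays by time. With a median SE of 0.23, genotype differences up to 1.04 went uncalled, and with 0.27 TSA differences as large as -1.89 did.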

Other observations

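The probe sets of a gene spread over a range after removal. Over 19 members with more than 1 kept probe set, the difference of the after-removal array from untreated p53-Dnmt1-null cells ranged within a gene over a median of 0.59 on the log2 scale. The same range for the TSA arrays, also 1 array against 1, had a median of 0.27 at 24 h and 0.17 at 48 h for the p53-null arrays. For the p53-Dnmt1-null arrays the medians were 0.41 and 0.17. In Nasp the after-removal values were 0.77 and 2.05, in Orc2 0.71 to 1.72, in Rfc1 0.46 to 1.54 and in Prim2 -0.72 to 0.35. Counted over all kept probe sets, 5 were at least 2-fold higher after removal, 1 each in Gmnn, Pola1, Orc2, Rfc1 and Nasp, and 0 at least 2-fold lower. These values were chosen after they were seen, and the difference between the ranges was not tested.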
